A study of Homo sapiens with 9 samples.

Results

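DDIT4, the 3 sestrin genes (SESN1, SESN2 and SESN3), NDRG1 and ERRFI1 encode proteins that restrain growth signalling, and they are described here in 786-O cells depleted of ARNT or of BMAL1. They were taken from the deposited count table by gene symbol, which gave 6 of 38021 genes, and all 6 had reads. The genes were picked with differences between these libraries already known, so their values are given as a description with no p value.

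786-O is an established human cell line from a clear cell renal cell carcinoma. It lacks functional VHL and therefore keeps HIF2α (EPAS1) stable at normal oxygen. The cells were wild type by their labels and carried a lentiviral pLKO.1 short hairpin RNA that was a control (shControl) or was directed at ARNT (shARNT) or at BMAL1 (shBMAL1), and all 3 groups were selected and kept in puromycin. Each group held 3 libraries of stranded mRNA labelled as biological replicates, and nothing in the labels says whether these were separate infections. The tests below therefore measure the spread between these libraries of a single line, in selected cell populations rather than clones.

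HIF2α pairs with ARNT on hypoxia response elements, whereas BMAL1 pairs with CLOCK on E-boxes to drive the circadian clock. BMAL1 can also form an active pair with HIF2α, as the study reports. The study asked how much each of ARNT and BMAL1 contributes to HIF2α-driven expression. DDIT4 (also called REDD1) is a classic hypoxia-inducible gene whose product acts through the TSC complex to switch off mTORC1, the kinase complex that promotes protein synthesis and growth. Sestrins restrain mTORC1 by binding GATOR2 in the amino acid sensing branch, and SESN2 is also the leucine sensor of that branch. NDRG1 is another hypoxia-induced gene and is known as a suppressor of growth and metastasis in several tumours. ERRFI1 (also called MIG6) binds the kinase domain of EGFR and blocks it.

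The letters that a HIF dimer reads were searched for in the promoters of DDIT4, the sestrins and ERRFI1, because this is a feature that played no part in choosing them. The search covered 300-base RefSeq windows, from 250 bases before to 50 bases after each transcription start, on both strands, for ACGTG or GCGTG (the core of a hypoxia response element) and for CACGTG (an E-box, which contains ACGTG). NDRG1 was not searched, because the set of windows held none under its symbol. The DDIT4 window held 4 cores, of which 1 was ACGTG, and no CACGTG. Among all 35116 promoter windows, 4.40% held at least 4 cores. At least 1 core was present in 48.4% of the windows, ACGTG in 21.4% and CACGTG in 7.26%. The 4 stretches of DDIT4 are shown because its window held the most cores of those searched, and each carries its core in capitals. On GRCh37 they lie on the plus strand at chr10:74033451-74033480, chr10:74033545-74033574, chr10:74033617-74033646 and chr10:74033695-74033724. The first base of the core is 219, 125 and 53 bases before the start in the first 3 stretches and 25 bases after it in the fourth.
DDIT4 stretch 1: tccagaaaggggGCGTGgcggtgggtcggg
DDIT4 stretch 2: agaacgttgcttACGTGcgcccggagtcca
DDIT4 stretch 3: ggcgcagagaagGCGTGgcctcgccgcgct
DDIT4 stretch 4: ggggaggtgcgaGCGTGgacctgggacggg

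SESN1 had 3 windows, for 3 start sites, of which 1 held a single GCGTG and none held ACGTG. That stretch is on the minus strand at chr6:109330820-109330849 on GRCh37, 82 bases before its start, and is shown for comparison with DDIT4.
SESN1 stretch: ccgcattggcttGCGTGgccgccagggcgg
The windows of SESN2, SESN3 and ERRFI1 held 0 matches to either core and 0 to CACGTG. A match is a string of letters and was not tested for binding, and the absence of a match covers these 300 bases alone.

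The genes lie on 5 chromosomes of GRCh37. DDIT4 is at chr10:74033678-74035794 on the plus strand and SESN2 at chr1:28586029-28609002 on the plus strand, and neither overlaps another annotated gene. ERRFI1 (chr1:8064464-8086369), SESN1 (chr6:109305512-109416049) and SESN3 (chr11:94898677-94965705) are on the minus strand and each overlaps a long noncoding RNA on the opposite strand. NDRG1 (chr8:134249418-134314265, minus strand) overlaps a long noncoding RNA on its own strand. Whether counting used the strand is not given in the sources used here, so reads of these 4 genes cannot be told apart from reads of the overlapping RNA.

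Library totals ran from 33793045 to 35444735 reads, and 20068 to 20778 genes had a read in each library. Normalised read counts below are counts divided by DESeq2 size factors over all 9 libraries, which lay close to 1. ARNT was 2352 ± 184 in shControl (SD, n = 3 here and throughout) and 1225 ± 23.2 in shARNT, and BMAL1, listed under its older symbol ARNTL, was 761 ± 31.96 in shControl and 326 ± 29.2 in shBMAL1. ARNT was also slightly lower in shBMAL1 (2014 ± 76.2), and ARNTL in shARNT (633 ± 57.8). All 6 renal carcinoma markers examined (PAX8, PAX2, KRT8, KRT18, VIM and CDH2) were expressed, with sums of 137592 to 140719 in shControl, 129927 to 132461 in shARNT and 112870.5 to 125413 in shBMAL1. Of 7 markers of other cells, CD3E and CDH5 were at 0 in every library, and PTPRC, PECAM1, VWF and ALB averaged under 10. The seventh, CD68, ran from 5325 to 7882, and the sum of these 7 markers was 7123 to 7890.2 in shControl, 6739.8 to 7351 in shARNT and 5328 to 6738 in shBMAL1. The part of these marker differences in the results was not tested. Counts from bulk RNA are relative to each library, so fewer cells that express a gene and less RNA per cell cannot be told apart.

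In control cells NDRG1, ERRFI1 and DDIT4 were among the most abundant transcripts of the line, SESN2 was well expressed, SESN1 was modest and SESN3 was near the limit of detection. Levels of different genes were set side by side as normalised counts per kb of the longest annotated transcript. On this scale the order was ERRFI1 (13912 ± 427), NDRG1 (12711 ± 588), DDIT4 (8077 ± 1047), SESN2 (744 ± 16.7), SESN1 (87.2 ± 7.08) and SESN3 (0.807 ± 0.403). These levels exceeded 99.6%, 99.6%, 99.1%, 83.6%, 45.7% and 10.2% of 17041 genes with a control read and an annotated length, in the same order. ERRFI1 and NDRG1 did not overlap in the 3 control libraries, although their ranges nearly met (13419 to 14182 against 12249 to 13374). With the union of all annotated exons as the length, NDRG1 (4218 per kb) fell below DDIT4 (6860 per kb) and further below ERRFI1 (10310 per kb). The order of NDRG1 and DDIT4 and the gap between NDRG1 and ERRFI1 therefore depend on the length used.

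**Figure D1:**
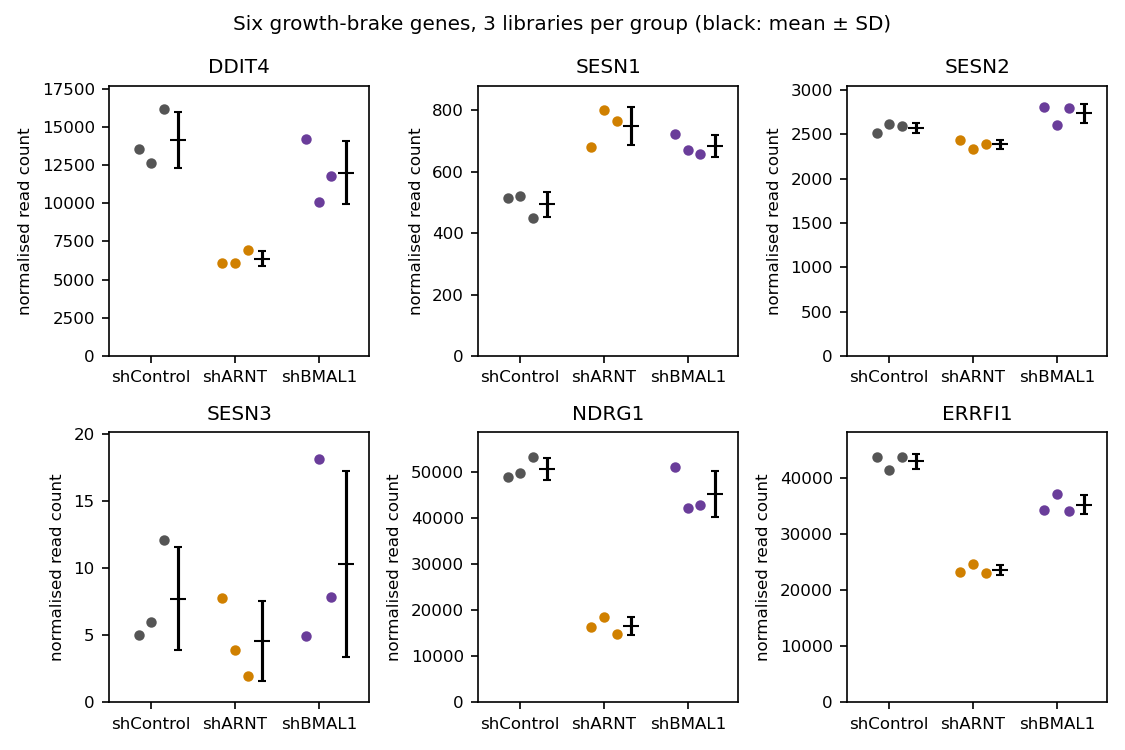
Normalised read counts (y axis, linear from 0, one scale per panel) of DDIT4, SESN1, SESN2, SESN3, NDRG1 and ERRFI1 in shControl, shARNT and shBMAL1 cells. Each point is a library, in replicate order from left to right, and the black bars are mean ± SD of 3 libraries. DDIT4, NDRG1 and ERRFI1 were lowest in all 3 shARNT libraries, SESN1 was higher in both knockdowns, and SESN3 never exceeded 18.1 counts.

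DDIT4 was at 13537, 12649 and 16168 normalised counts in the control libraries 1 to 3, at 6099, 6063 and 6953 in shARNT, and at 14182, 10097 and 11770 in shBMAL1. All 3 shARNT libraries were below every control library, whereas the shBMAL1 libraries overlapped the controls and lay above every shARNT library. The means were 14118 ± 1830, 6372 ± 504 and 12016 ± 2054, so that shARNT held 45.1% and shBMAL1 85.1% of the control level. The log2 fold change was −1.14 (SE 0.08) in shARNT and −0.23 (SE 0.18) in shBMAL1.

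SESN1, a sestrin known as a p53 target, went the other way. It was at 513, 521 and 448 normalised counts in shControl, at 680, 802 and 764 in shARNT, and at 724, 671 and 658 in shBMAL1. Every knockdown library was above every control library, and the ranges of the knockdowns overlapped each other. The means of 494 ± 40.1, 749 ± 62.5 and 684 ± 34.8 put shARNT at 152% and shBMAL1 at 139% of control, with log2 fold changes of 0.60 (SE 0.11) and 0.47 (SE 0.11).

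SESN2, the sestrin that is also induced by ATF4, differed least from control in each knockdown among the 5 well expressed genes. It was at 2511, 2621 and 2599 normalised counts in shControl, at 2438, 2340 and 2388 in shARNT, and at 2806, 2609 and 2799 in shBMAL1. The shARNT libraries lay just below the controls without overlap, and the shBMAL1 libraries overlapped the controls. The means were 2577 ± 58.0, 2389 ± 48.9 and 2738 ± 112, which are 92.7% and 106% of control in shARNT and shBMAL1. The log2 fold changes were −0.11 (SE 0.06) and 0.09 (SE 0.07).

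SESN3, a sestrin driven by FOXO factors in other cells, had too few reads to be compared. Its normalised counts were 5.03, 6.00 and 12.1 in shControl, 7.80, 3.93 and 1.99 in shARNT, and 4.96, 18.1 and 7.83 in shBMAL1. The 3 groups overlapped one another. Its log2 fold change was −0.75 (SE 0.90) in shARNT, where it fell below the expression filter of the test, and 0.41 (SE 0.77) in shBMAL1, so a change was not detectable at this depth.

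NDRG1 showed the largest difference of the 6 genes in shARNT. It was at 48787, 49835 and 53267 normalised counts in shControl, at 16246, 18594 and 14778 in shARNT, and at 50949, 42053 and 42697 in shBMAL1. All shARNT libraries were far below the other 6, and shBMAL1 replicate 1 lay inside the control range while the other two shBMAL1 libraries lay below it. The means were 50629.6 ± 2343, 16539 ± 1925 and 45233 ± 4961, or 32.7% of control in shARNT and 89.3% in shBMAL1. The log2 fold changes were −1.61 (SE 0.07) and −0.16 (SE 0.08).

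ERRFI1 was lower in both knockdowns, in graded fashion. It was at 43921, 41559 and 43772 normalised counts in shControl, at 23292, 24682 and 23064 in shARNT, and at 34443, 37237 and 34275 in shBMAL1. The 3 groups were fully separated, with shBMAL1 between the other two. The means were 43084 ± 1323, 23679 ± 876 and 35318 ± 1664, or 55.0% of control in shARNT and 82.0% in shBMAL1. The log2 fold changes were −0.86 (SE 0.05) and −0.29 (SE 0.06).

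A gene was called changed at a DESeq2 adjusted p under 0.1, the tool and threshold of the study. In shARNT, DDIT4, NDRG1 and ERRFI1 were called lower and SESN1 higher, SESN2 was not called, and SESN3 was not tested. Of 15164 genes tested in shARNT 35.4% were called, 19.0% lower and 16.5% higher. In shBMAL1, NDRG1 and ERRFI1 were called lower, SESN1 higher, and DDIT4, SESN2 and SESN3 were not called, where 36.8% of 19036 genes tested were called, 19.4% lower and 17.4% higher. These comparisons use the same 3 control libraries, and the genes were chosen from them, so nothing is read from these counts of called genes. How many of all genes separate between groups without overlap was not counted, so the separations given above are a description only.

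The calls in shBMAL1 for DDIT4 and NDRG1 rested on particular libraries. DDIT4 was called without shControl replicate 2 (log2 fold change −0.31) and without shBMAL1 replicate 1 (−0.37), was at −0.13 without shControl replicate 3 and at −0.12 without shBMAL1 replicate 2, and was also called by edgeR and with the replicate number as a block. NDRG1 lost its call without any control library (−0.13 to −0.19), without shBMAL1 replicate 2 (−0.11) and without shBMAL1 replicate 3 (−0.13), in a fit of all 9 libraries and with the replicate block, and was at −0.26 without shBMAL1 replicate 1.

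Among 11823 genes that averaged 100 normalised counts or more over the 9 libraries, NDRG1 stood 27th, DDIT4 79th and ERRFI1 182nd from the most lowered in shARNT, and SESN1 stood 257th from the most raised. In shBMAL1 the same ordering placed ERRFI1 at 2412th, DDIT4 at 2987th and NDRG1 at 3908th from the most lowered and SESN1 at 1026th from the most raised.

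**Figure D2:**
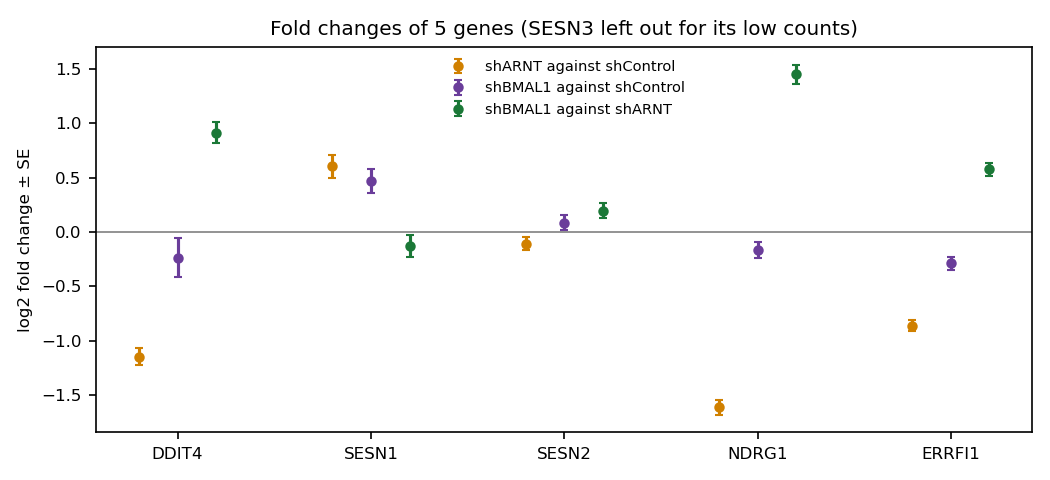
Log2 fold change ± SE (y axis) of DDIT4, SESN1, SESN2, NDRG1 and ERRFI1 for each knockdown against shControl and for shBMAL1 against shARNT, each from a DESeq2 fit of 6 libraries. In shARNT, NDRG1 (−1.61), DDIT4 (−1.14) and ERRFI1 (−0.86) lie well below 0 and SESN1 (0.60) above it, whereas in shBMAL1 the 5 values lie between −0.29 and 0.47.

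Set directly against each other, shBMAL1 cells held more DDIT4, NDRG1, ERRFI1 and SESN2 than shARNT cells. NDRG1 was 2.73-fold higher in shBMAL1 (log2 fold change 1.45, SE 0.09), DDIT4 1.88-fold higher (0.91, SE 0.10) and ERRFI1 1.49-fold higher (0.58, SE 0.06). SESN2 was 1.15-fold higher (0.20, SE 0.07), and its call was lost without shARNT replicate 2 (log2 fold change 0.18). SESN1 (log2 fold change −0.13, SE 0.10) overlapped between the knockdowns and was not called, nor was SESN3 (1.17, SE 0.86). Of 18181 genes tested in this comparison 35.3% were called, 17.3% higher and 18.0% lower in shBMAL1.

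The genes did not keep their proportions to each other. The ratio of DDIT4 to NDRG1 reads within a library was 0.278 ± 0.0249 in shControl, 0.391 ± 0.0734 in shARNT and 0.265 ± 0.0214 in shBMAL1. All 3 shARNT libraries (0.326 to 0.471) were above all other libraries (0.240 to 0.304). The ratio of ERRFI1 to NDRG1 was 0.852 ± 0.0423 in shControl, 1.44 ± 0.117 in shARNT and 0.788 ± 0.105 in shBMAL1. The shARNT libraries were again above all others, so NDRG1 was reduced by a larger factor than DDIT4 or ERRFI1 there. Within the sestrins, the ratio of SESN1 to SESN2 was 0.192 ± 0.0171 in shControl, 0.314 ± 0.0324 in shARNT and 0.250 ± 0.0130 in shBMAL1. The 3 groups did not overlap.

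**Figure D3:**
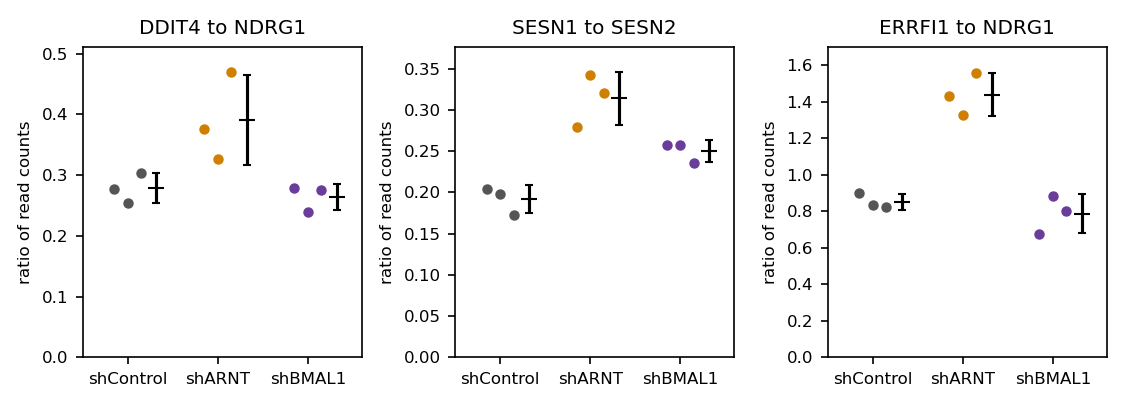
Ratio of read counts within each library (y axis, linear from 0) for DDIT4 to NDRG1, SESN1 to SESN2 and ERRFI1 to NDRG1 in shControl, shARNT and shBMAL1 cells. Points are libraries in replicate order and black bars are mean ± SD of 3. The shARNT libraries are highest in every panel, at 0.326 to 0.471, 0.279 to 0.343 and 1.33 to 1.56.

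The genes also differed in how much they varied between libraries of the same group. The coefficient of variation of DDIT4 was 13.0% in shControl, 7.91% in shARNT and 17.1% in shBMAL1, where genes within 1.5-fold of its level had medians of 3.73%, 4.00% and 5.74%. It exceeded 98.0%, 91.3% and 98.8% of these 448, 1165 and 518 genes. NDRG1 varied by 4.63%, 11.6% and 10.97% and exceeded 54.7%, 96.6% and 86.2% of genes at its level. ERRFI1 varied by 3.07%, 3.70% and 4.71% and SESN2 by 2.25%, 2.05% and 4.07%, each below the median of genes at its level in all 3 groups. In shControl replicate 3 was the highest library for both DDIT4 and NDRG1, and in shBMAL1 replicate 1 was. In shARNT replicate 3 was the highest for DDIT4 and the lowest for NDRG1.

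For each gene the 3 most alike patterns across the 9 libraries were sought among 11806 genes averaging 100 counts or more, by Pearson r on log2(normalised count + 1). These r values describe libraries that fall into 3 groups and share their controls. For NDRG1 they were RSU1 (r = 0.994), ALDH2 (0.993) and DYSF (0.992), and for ERRFI1 SH2D3A (0.994), FZD8 (0.986) and ACKR3 (0.985). For DDIT4 they were ZFP36 (0.974), SPINT1 (0.969) and TGFA (0.965), a ligand of EGFR whose means were 11418 (shControl), 6661 (shARNT) and 9596 (shBMAL1). For SESN1 they were VWA9 (0.993), SF3B1 (0.987) and ABCD3 (0.975), and for SESN2 PRKCSH (0.969), DBNL (0.967) and NISCH (0.963). SESN3 is left out for its low counts.

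The pathways around these genes were followed in 8 gene lists that hold 131 genes and none of the 6. In shARNT 30 of the 125 list genes tested were lower and 35 higher (52.0% called, against 35.4% of all genes). In shBMAL1 36 of 127 were lower and 31 higher (52.8% called, against 36.8%). The difference from the background was not tested, and the background was not matched to the lists for expression level. Like the 6 genes, the lists were chosen with earlier results of these data known. Most genes named from them were picked as the most changed. Their adjusted p values are therefore given as a description and not as independent support.

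**Figure D4:**
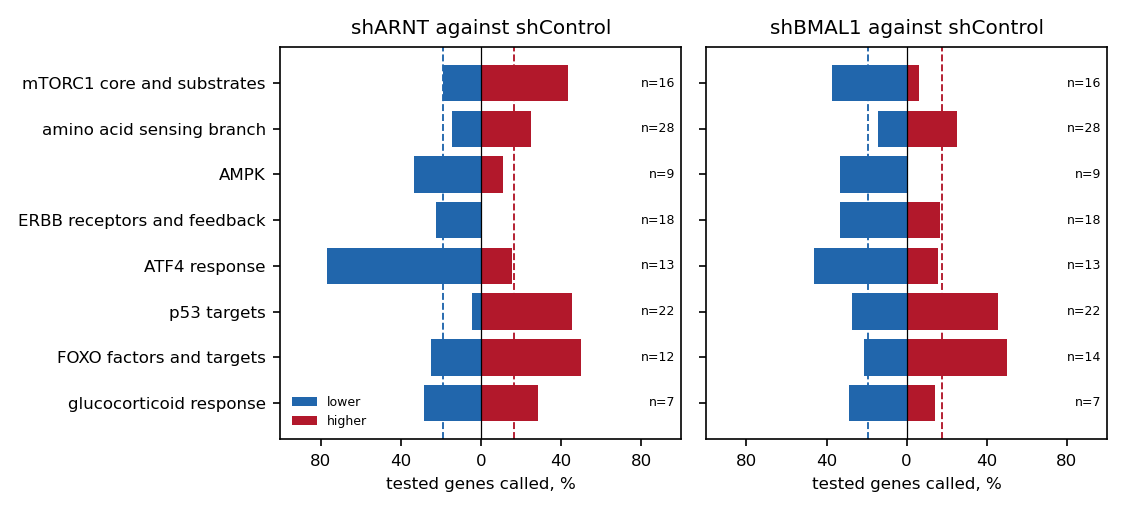
Share of the tested genes of each of 8 lists called lower (blue, to the left) or higher (red, to the right) in shARNT against shControl and in shBMAL1 against shControl, in percent, with n the genes tested. Dashed lines mark the shares called lower (19.0% and 19.4%) and higher (16.5% and 17.4%) among all genes tested. The ATF4 list in shARNT extends furthest to the left, with 10 of 13 genes lower.

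Of the 8 lists, ATF4's had the highest share of genes called in shARNT (92.3%). ATF4 is the transcription factor of the integrated stress response, and DDIT4 and SESN2 are among its known targets. In shARNT 10 of the 13 genes tested were called lower and 2 higher (19.0% and 16.5% of all genes), with a median log2 fold change of −0.56 against 0.0028 over all genes tested. ASNS, which makes asparagine, was at 6363, 7425 and 6410 normalised counts in shControl and at 2694, 2953 and 3307 in shARNT (log2 fold change −1.17, SE 0.08, DESeq2 adjusted p = 2.48e-49). TRIB3, a pseudokinase that feeds back on ATF4 signalling, fell from 8101 ± 215 to 3995 ± 205 (−1.02, adjusted p = 2.31e-72). CHAC1, which degrades glutathione, fell from 478 ± 62.3 to 230.2 ± 11.8 (−1.05, adjusted p = 1.82e-13). ATF4 mRNA itself, named because it gives the list its name, fell by 0.41 on the log2 scale (adjusted p = 2.4e-12). The 2 that rose were the transcription factors ATF5 (0.74, adjusted p = 8.81e-06) and CEBPB (0.49, adjusted p = 0.00104).

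In shBMAL1 the ATF4 list was mixed, with 6 of 13 lower and 2 higher (19.4% and 17.4% of all genes) and a median of −0.25 against 0.015 over all genes tested. ASNS was at 4925, 6393 and 6614 normalised counts, overlapped the controls and was not called (log2 fold change −0.17, adjusted p = 0.185), although it passed without shBMAL1 replicate 3 (adjusted p = 0.053). CHAC1 was not called either (−0.17, adjusted p = 0.358). TRIB3 was lower (−0.56, adjusted p = 3.27e-14), as was PPP1R15A, which reverses the translational block of the stress response (−0.83, adjusted p = 7.27e-21, and −0.41 in shARNT). NUPR1, a stress-induced nuclear protein, was lower in shARNT (−0.86, adjusted p = 1.26e-06) and higher in shBMAL1 (0.59, adjusted p = 0.00154). Directly compared, 8 of 13 list genes were higher in shBMAL1 than in shARNT and 3 lower (17.3% and 18.0% of all genes), among them ASNS (1.00 higher, adjusted p = 1.36e-20), NUPR1 (1.45 higher, adjusted p = 3.16e-15) and ATF5 (−1.08, adjusted p = 6.98e-12). PHGDH, which starts serine synthesis, was near 0 in all groups and was not tested.

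**Figure D5:**
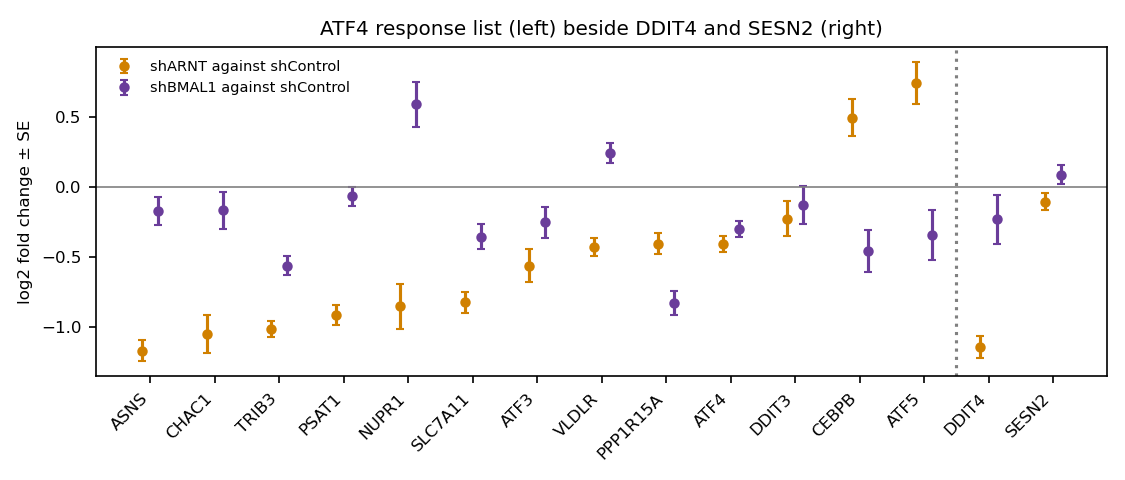
Log2 fold change ± SE (y axis) of the 13 tested ATF4 list genes, ordered by shARNT, in shARNT and shBMAL1 against the same shControl libraries, with DDIT4 and SESN2 set apart on the right of the dotted line. ASNS, CHAC1, TRIB3, PSAT1 and DDIT4 sit between −1.17 and −0.92 in shARNT and between −0.56 (TRIB3) and −0.07 (PSAT1) in shBMAL1, NUPR1 goes from −0.86 to 0.59, and SESN2 lies within 0.11 of 0 in both.

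DDIT4 acts on mTORC1 through the TSC complex, and the mTORC1 list holds both. Of 16 mTORC1 core and substrate genes, shARNT lowered 3 (TSC2, EIF4EBP1 and ULK1) and raised 7 (MLST8, RICTOR, AKT1S1, TSC1, TBC1D7, EIF4EBP2 and RPS6KB1), where 19.0% of all genes were lower and 16.5% higher. In shBMAL1 6 were lower (MTOR, RPTOR, RHEB, TSC2, EIF4EBP1 and ULK1) and 1 higher (EIF4EBP2, a call lost without shBMAL1 replicate 1 at an adjusted p of 0.124), where the shares over all genes were 19.4% and 17.4%. RHEB, the small GTPase that switches mTORC1 on, averaged 2072 ± 176 in control libraries, 2135 ± 84.8 in shARNT and 1401 ± 77.0 in shBMAL1, and it fell in the last (log2 fold change −0.57, adjusted p = 1.22e-09). RICTOR, the defining subunit of mTORC2, rose in shARNT (0.62, adjusted p = 9.29e-12) and did not differ detectably in shBMAL1 (0.01, SE 0.08, adjusted p = 0.937). EIF4EBP1, a translational repressor that mTORC1 inactivates, fell in both, by 0.69 in shARNT (adjusted p = 1.17e-14) and by 0.84 in shBMAL1 (adjusted p = 9.55e-14) on the log2 scale. TSC2, the GTPase-activating subunit of the TSC complex through which DDIT4 acts, fell by 0.31 in shARNT (adjusted p = 9.03e-07) and by 0.19 in shBMAL1 (adjusted p = 0.0434), the latter a call lost without shControl replicates 2 or 3 (adjusted p 0.12 and 0.15) or shBMAL1 replicates 2 or 3 (0.17 and 0.20) and with the GC correction (−0.12, adjusted p 0.149). Directly compared, 9 of the 16 were lower in shBMAL1 than in shARNT and 0 higher (18.0% and 17.3% of all genes), with TBC1D7, the third TSC subunit, at −0.61 (adjusted p = 8.69e-07) and RHEB at −0.61 (adjusted p = 3.61e-13).

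In the amino acid sensing branch, which carries the GATOR2 complex that sestrins bind, 4 of 28 genes were lower and 7 higher in each knockdown (39.3% called, against 35.4% of all genes in shARNT and 36.8% in shBMAL1). The largest rise among the genes the naming rule allows was in FNIP2, a partner of folliculin in Rag GTPase control, which went from 1087, 1017 and 1049 normalised counts in shControl to 2236, 2369 and 2282 (log2 fold change 1.13, adjusted p = 3.88e-58), was at 1145 ± 54.2 in shBMAL1 (0.12, adjusted p = 0.308) and was below shARNT there (−1.004, adjusted p = 1.63e-36). Of the GATOR2 subunits, SEC13 was at 7216 ± 558 in shControl and 4499.7 ± 288 in shBMAL1 (−0.68, adjusted p = 1.18e-17). In shARNT SEC13 was at 6584 ± 177 (−0.13, adjusted p = 0.0973), a call that was lost in 9 of 12 alternatives. MIOS fell by 0.30 in shARNT (adjusted p = 0.0104) and by 0.32 in shBMAL1 (adjusted p = 0.00974), and its call in shARNT was lost without shARNT replicate 2 (adjusted p 0.11). Of the nutrient sensors that act alongside the sestrins in this branch, BMT2, which reports methionine donor supply, rose in shBMAL1 (0.53, adjusted p = 2.93e-05), as did the arginine sensor GATSL3 (0.40, adjusted p = 0.000137), and neither was called in shARNT (0.12 and −0.18, adjusted p = 0.487 and 0.132), although edgeR and the fit without shARNT replicate 2 called GATSL3 lower there. GATSL2, the paralogue of GATSL3, whose reads may be shared with near-identical copies in the genome, rose in shARNT (0.54, adjusted p = 0.00571) and was not called in shBMAL1 (0.21, adjusted p = 0.412). The count in shARNT was 7 without shARNT replicate 3, and that in shBMAL1 was 7 without shBMAL1 replicate 3.

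Of 9 AMPK genes tested, which act on the TSC complex in parallel with DDIT4, 3 were lower and 1 higher in shARNT (44.4% called, against 35.4% of all genes) and 3 were lower and 0 higher in shBMAL1 (33.3%, against 36.8%). The γ2 subunit PRKAG2 was at 1321, 1346 and 1549 normalised counts in shControl, at 1107, 1052 and 1130 in shARNT and at 509, 606 and 681 in shBMAL1. The 3 groups did not overlap, and PRKAG2 fell by 0.35 in shARNT (adjusted p = 0.000151) and fell by 1.23 in shBMAL1 (adjusted p = 1.12e-26) on the log2 scale. The catalytic subunit PRKAA2 fell in shARNT (−0.56, adjusted p = 1.89e-05) and was at −0.28 in shBMAL1 (adjusted p = 0.122), where it passed in 5 of 12 alternatives, among them edgeR (adjusted p 0.083), the GC correction (0.036) and the fit without shBMAL1 replicate 2 (−0.42, adjusted p 0.029).

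Around ERRFI1, 4 of 18 ERBB receptor and feedback genes were lower and 0 higher in shARNT (22.2% called, against 35.4% of all genes), and 6 were lower and 3 higher in shBMAL1 (50%, against 36.8%). EGFR, the receptor that ERRFI1 inhibits, was at 4831, 5476 and 4627 normalised counts in shControl, at 5347, 4876 and 4691 in shARNT and at 6772, 7032 and 7086 in shBMAL1. It overlapped the controls in shARNT (log2 fold change 0.00, SE 0.07) and was above all other libraries in shBMAL1 (0.48, adjusted p = 1.02e-09). The ubiquitin ligase CBL, which marks EGFR for degradation, fell by 0.32 in shARNT (adjusted p = 0.00109) and by 0.75 in shBMAL1 (adjusted p = 3.31e-12). Among inhibitors of the RAS pathway downstream, SPRED3 changed by −0.38 in shARNT (adjusted p = 0.00756) and −1.35 in shBMAL1 (adjusted p = 8.63e-22), and SPRY2 by −0.46 (adjusted p = 0.000673) and −0.60 (adjusted p = 1.32e-05). LRIG3, also of this list, rose in shBMAL1 (0.44, adjusted p = 9.99e-05) and was not called in shARNT (0.18, adjusted p = 0.215). Directly compared, EGFR was higher (0.48, adjusted p = 3.24e-11) and SPRED3 lower (−0.96, adjusted p = 2.98e-10) in shBMAL1 than in shARNT. SOCS5 and LRIG3 were also higher there (0.31 and 0.26, adjusted p = 0.0147 and 0.0462). Both of these calls were lost without shARNT replicate 2 (adjusted p 0.11 each).

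SESN1 and SESN2 are known p53 targets, and of 22 other p53 targets 1 was lower and 10 higher in shARNT (50% called, against 35.4% of all genes) and 6 were lower and 10 higher in shBMAL1 (72.7%, against 36.8%). ZMAT3 rose in both knockdowns (log2 fold changes 0.63 and 0.61, adjusted p = 1.45e-08 and 3.09e-07), as did TP53INP1 (0.78 and 0.99, adjusted p = 4.08e-05 and 8.74e-09). The death receptor TNFRSF10B fell in both (−0.55 and −0.58, adjusted p = 1.27e-26 and 1.85e-19). GDF15, a secreted stress cytokine, rose in shARNT from 2239 ± 193 to 3410.0 ± 96.7 (0.61, adjusted p = 3.48e-17) and was at 2196 ± 99.7 in shBMAL1. The 11 calls in shARNT came to 7 without shControl replicate 1, without shARNT replicate 3 or with the replicate block, and ZMAT3, TP53INP1, TNFRSF10B and GDF15 kept their calls in every alternative.

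Of the FOXO factors and their other targets, a list that leaves out SESN3 itself, 3 of 12 were lower and 6 higher in shARNT (19.0% and 16.5% of all genes) and 3 of 14 lower and 7 higher in shBMAL1 (19.4% and 17.4% of all genes). BCL2L11, which encodes the proapoptotic protein BIM, averaged 1307 ± 86.9 (shControl), 2259 ± 52.7 (shARNT) and 2994 ± 246 (shBMAL1) normalised counts (0.79 and 1.19, adjusted p = 4.28e-27 and 2.17e-42). BCL6 rose in both as well (0.80 and 0.50, adjusted p = 6.08e-25 and 6.77e-07), and the insulin signalling adaptor IRS2 fell in both (−0.80 and −0.27, adjusted p = 8.41e-23 and 0.00216). FBXO32, a muscle atrophy ubiquitin ligase, rose in shARNT (0.88, adjusted p = 6.27e-21) and fell in shBMAL1 (−0.68, adjusted p = 1.47e-07), with a direct difference of −1.56 (adjusted p = 3.47e-44).

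Glucocorticoids induce DDIT4 and ERRFI1, and of 7 other glucocorticoid-responsive genes tested 2 were lower and 2 higher in shARNT (57.1% called, against 35.4% of all genes) and 2 lower and 1 higher in shBMAL1 (42.9%, near the 36.8% of all genes). The phosphatase DUSP1 fell in shARNT from 2961 ± 82.2 to 1745 ± 155 (−0.76, adjusted p = 1.75e-24). In shBMAL1 it was at −0.18 (adjusted p = 0.123), and it passed by edgeR at an adjusted p of 0.079 and, when shBMAL1 replicate 1 was left out, by DESeq2 at 0.0002. SGK1, the kinase known to phosphorylate NDRG1, was at 279, 301 and 268 normalised counts in shControl, at 432, 455 and 391 in shARNT and at 248, 214 and 200 in shBMAL1. It rose in shARNT (0.59, adjusted p = 2.19e-05), and the direct difference of shBMAL1 from shARNT was −0.95 (adjusted p = 2.2e-10). Its call in shBMAL1 against shControl (−0.36, adjusted p = 0.0542) was lost without shControl replicates 1 or 2 (0.12 and 0.20), without shBMAL1 replicates 2 or 3 (0.17 and 0.22) and with the replicate block (0.14).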

How the data were processed

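RNA of 786-O cells was measured in 9 libraries, 3 each of shControl, shARNT and shBMAL1, grouped by their labels. The authors deposited expected counts (estimated counts, as linear read totals per gene). Per the study's methods, SeqMan NGen aligned paired-end reads to GRCh37 and ArrayStar exported the counts, whereas the submitters' processing notes name STAR, DESeq2 and hg38. The gene annotation and strand setting were not given in the sources used here.

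The placeholder 0.009 (46.3% of cells) was read as 0. Fractions, in 6.14% of the remaining values with 5.58% of reads, were rounded to whole numbers. Of 38074 rows, 53 sharing a gene name were added to the row of that name, and 28 symbols turned into dates stayed in the fits unnamed. Pairs of libraries of a group differed by more than sampling noise (chi-square per degree of freedom 7.18 to 16.4, against 44.5 to 93.9 between groups), so none was counted as a copy.

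Each comparison was fitted in DESeq2 1.42.0 (R 4.3.3) with its 6 libraries (two-sided Wald test on median-of-ratios size factors, p values adjusted by Benjamini and Hochberg's method over all genes after independent filtering at 0.1) and was checked on simulated data. The members and gene lists were chosen with earlier results of these data known. Genes named from a list were the 2 most lowered and 2 most raised called genes in each comparison among those averaging 100 normalised counts or more, and others appear as members of a count or where said. Not all genes the rule allows are printed. Coordinates and lengths came from GENCODE lifted to GRCh37, matched by symbol for 23660 genes with 93.5% of reads. Promoter windows were RefSeq's on GRCh38.p14, and the printed stretches were located on GRCh37. Alternatives were edgeR 4.0.16 (quasi-likelihood, TMM), DESeq2 with TMM factors, a filter of 10 counts in 3 libraries, a threshold of 0.05, 1 fit of 9 libraries, a replicate block, a GC correction and leaving out each library. Every library held at least 33793045 reads. Counting error is a larger part of the spread between libraries for SESN1, SESN2 and above all SESN3 than for DDIT4, NDRG1 and ERRFI1, which had more reads.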

Additional observations from a re-analysis of the deposited data

How the results depend on the processing

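The log2 fold changes of DDIT4, SESN1, NDRG1 and ERRFI1 in shARNT, of SESN1 and ERRFI1 in shBMAL1, and of DDIT4, NDRG1 and ERRFI1 in the direct comparison kept their direction and call in 12 alternatives. The value that moved by more than the spread between libraries was SESN2 in shARNT, at −0.056 with the GC correction, which also brought SESN2 past the threshold in shBMAL1 (0.15). When libraries were left out SESN3 ranged from −1.38 to −0.27 in shARNT, from −0.27 (without shBMAL1 replicate 2) to 0.90 in shBMAL1 and from 0.48 to 1.80 directly. Genes called numbered 4174 to 4508 in shARNT, 5744 to 6347 in shBMAL1 and 5087 to 5928 directly when each library was left out. Replicate numbers were shared across groups, but same-numbered libraries did not deviate together (correlations of deviations −0.21 to 0.13 over 11823 genes), so they were not taken as pairs. With the replicate block 4150 genes were called in shARNT, 5742 in shBMAL1 and 5388 directly, and among the 6 genes it changed the calls of DDIT4 and NDRG1 in shBMAL1. Counts of list genes called that moved by over 1.5 times, beside those already given, were AMPK in shBMAL1 (5 with the GC correction, which was added for the lists after the data were seen), AMPK directly (5 by edgeR, 6 with the GC correction), glucocorticoid genes in shBMAL1 (5 without shBMAL1 replicate 1), ERBB genes directly (5 without shARNT replicate 2) and FOXO genes directly (6 without shARNT replicate 1). The comparison of sestrin proteins was not run. Depth limits SESN3 most, and the spread of SESN2 and SESN1 between libraries also holds a sizeable part of counting error.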

Other observations

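The relatives of these genes were followed as a further list of 5 (DDIT4L, NDRG2, NDRG3, NDRG4 and TNK2). It too was chosen with earlier results of these data known. NDRG3, which like NDRG1 is an NDRG family member, was at 5342, 5529 and 5399 normalised counts in shControl, with 4174, 4533 and 4356 in shARNT and with 4658, 4322 and 4274 in shBMAL1. Every knockdown library was below every control library, and NDRG3 fell by 0.31 in shARNT (DESeq2 adjusted p = 1.07e-07) and by 0.30 in shBMAL1 (adjusted p = 3.72e-05) on the log2 scale. NDRG2 was low, at 58.4, 43.0 and 44.5 normalised counts in shControl, with 71.1, 69.7 and 50.7 in shARNT and with 114, 158 and 112 in shBMAL1. It rose in shBMAL1 (log2 fold change 1.39, SE 0.26, adjusted p = 8.43e-07) and was higher there than in shARNT (1.00, adjusted p = 0.000356).

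TNK2, a kinase that shares an EGFR-binding region with ERRFI1, fell in shBMAL1 from 821 ± 34.8 to 603 ± 10.7 normalised counts (−0.45, adjusted p = 3.33e-05) and was at 713 ± 37.3 in shARNT. Its call in shARNT (−0.20, adjusted p = 0.0795) and that of NDRG4 (−0.24, adjusted p = 0.0708) were lost in 7 and 8 of 12 alternatives, among them leaving out any control library. DDIT4L, the paralogue of DDIT4, averaged 10.4 ± 4.20 (shControl), 19.3 ± 7.29 (shARNT) and 8.22 ± 5.94 (shBMAL1) normalised counts and was not called by DESeq2 in any comparison, although in shBMAL1 against shARNT edgeR gave an adjusted p of 0.06 and leaving out shBMAL1 replicate 3 gave 0.056, both under the threshold.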
